A study of Mus musculus with 14 samples.

Results

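The 31 genes described here encode the enzymes and regulators of cholesterol and fatty acid synthesis, in a sterol arm and a fatty acid arm. They were named by symbol, and each was read by its brightest probe set on average across the 14 arrays. Of the 31, 30 were measured, 18 of the sterol arm and 12 of the fatty acid arm, among 18193 genes in all; Acat2 was not analysed here. Of the 30, 28 had a mean above 5 on the log2 scale in at least 1 of the 6 groups, and Mvd and Me1 did not; no filter on low signals was applied before the tests. Expression was measured on Affymetrix arrays in cells from the bone marrow of C57Bl6 mice, given as adults of 8 to 12 weeks. The groups called Pax5KO engrafted and WT engrafted (3 arrays each) were B220+ cells positive for a λ5 reporter, sorted 4 weeks after fetal liver cells of day 15 embryos were given to sublethally irradiated mice. All donors carried the reporter, and the donors differed in whether they lacked Pax5, a transcription factor of the B lineage. The other groups (2 arrays each) came from mice without a transplant and, by label, were Ly6D- and Ly6D+ CLP (common lymphoid progenitors), ProB cells and PreB cells. The sort gates of these groups and the sex of the mice are not given in the sources used here. The titles call the arrays of a group biological replicates, but nothing says how many mice stand behind an array, so p-values measure the spread between these samples. In bulk RNA of this kind, fewer cells of a type and less RNA per cell cannot be told apart.

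Cells make cholesterol from acetyl-CoA through mevalonate, isoprenoid units and squalene, and make fatty acids from the same acetyl-CoA through malonyl-CoA. Both arms are driven by the SREBP transcription factors, of which the product of Srebf2 acts mainly on sterol genes and that of Srebf1 mainly on fatty acid genes. When membrane sterol is low, SCAP escorts the SREBP precursors from the endoplasmic reticulum to the Golgi for cleavage; when sterol is high, INSIG proteins hold them back. Dividing lymphoid cells need both products for new membrane, and B cell progenitors pass through rapid division at the pro-B and large pre-B stages.

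Promoters were searched because SREBPs act with NF-Y at the genes they regulate. The windows ran from 250 bases before to 50 after each gene start in RefSeq (GRCm38.p6), and 24 of the 30 measured genes matched, with 30 windows. The NF-Y box (CCAAT, either strand) stood in a window of 20 of the 24 genes, against 41.1% of all 27025 genes with windows, and in 21 of the 30 windows, against 37.4% of all 32851 windows. The sterol response element, searched as the exact letters TCACNCCAC, stood in 1 of the 24 genes, Hmgcs1, against 1.44% of all genes. Variants of a motif and sites outside the windows were not searched, so a window without a match may still hold a variant site. The E-box CACGTG stood in 5, namely Dhcr7, Elovl5, Hsd17b7, Insig1 and Sc5d, against 8.09% of all genes. Matches to different motifs did not overlap. The windows below are shown because they belong to the gene with the sterol response element (Hmgcs1) and to the 4 genes with a window that were higher in Pax5KO cells (Idi1, Fasn, Elovl5 and Fads2, described further on). Capitals mark the matches to any of the 3 motifs, and each is written from 5′ to 3′ on the gene's strand. No window was listed for Fdps, Fdft1, Sqle, Scd1, Scd2 and Fads1.
Hmgcs1 (chr13:119690101-119690400, + strand): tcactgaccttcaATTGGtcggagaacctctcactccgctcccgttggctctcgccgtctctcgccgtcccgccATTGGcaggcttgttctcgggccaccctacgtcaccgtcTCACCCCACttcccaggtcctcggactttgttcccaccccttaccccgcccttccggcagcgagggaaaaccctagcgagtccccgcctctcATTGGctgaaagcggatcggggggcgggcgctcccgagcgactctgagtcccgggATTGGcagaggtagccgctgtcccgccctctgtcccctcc
Idi1 (chr13:8885356-8885655, + strand): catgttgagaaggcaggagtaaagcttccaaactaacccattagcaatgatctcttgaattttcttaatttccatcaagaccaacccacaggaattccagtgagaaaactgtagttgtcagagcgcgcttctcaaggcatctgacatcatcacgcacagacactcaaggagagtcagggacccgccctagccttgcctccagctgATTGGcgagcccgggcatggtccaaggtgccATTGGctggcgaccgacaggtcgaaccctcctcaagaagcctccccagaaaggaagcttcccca
Fasn (chr11:120824498-120824797, - strand): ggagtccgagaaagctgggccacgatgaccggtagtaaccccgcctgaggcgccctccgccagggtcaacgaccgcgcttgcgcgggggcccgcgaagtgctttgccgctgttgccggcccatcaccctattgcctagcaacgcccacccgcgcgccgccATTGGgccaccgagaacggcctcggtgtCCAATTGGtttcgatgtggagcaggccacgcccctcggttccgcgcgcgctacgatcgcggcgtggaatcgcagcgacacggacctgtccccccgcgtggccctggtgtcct
Elovl5 (chr9:77917115-77917414, + strand): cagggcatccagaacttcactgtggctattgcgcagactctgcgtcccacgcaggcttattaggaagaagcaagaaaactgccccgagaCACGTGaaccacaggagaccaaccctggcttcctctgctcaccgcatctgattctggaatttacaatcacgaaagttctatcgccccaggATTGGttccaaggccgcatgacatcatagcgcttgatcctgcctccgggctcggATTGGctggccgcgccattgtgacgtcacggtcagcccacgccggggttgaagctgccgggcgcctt
Fads2 (chr19:10101454-10101753, - strand): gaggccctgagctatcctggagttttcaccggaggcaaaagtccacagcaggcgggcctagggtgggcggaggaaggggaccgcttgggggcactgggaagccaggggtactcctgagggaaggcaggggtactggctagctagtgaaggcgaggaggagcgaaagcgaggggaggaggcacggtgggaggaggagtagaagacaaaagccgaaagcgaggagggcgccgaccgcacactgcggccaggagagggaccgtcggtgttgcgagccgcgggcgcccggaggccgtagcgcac
The sterol response element of Hmgcs1 began 137 bases before the start, between NF-Y boxes on the other strand at 176 and 45 bases before it. Idi1 had NF-Y boxes at 45 and 14 bases before the start. Fasn had 3, at 90, 62 and 59 bases before the start used for its window, and the pair nearest that start shared letters. The Fasn window lay wholly within the gene as listed (chr11:120805958-120825166), so that start is not the outer end of the gene. The region at the outer end was not searched. Elovl5 had the E-box at 161 bases and NF-Y boxes at 71 and 17 bases before the start. The Fads2 window held no exact match to any of the 3 motifs.

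The arrays were checked before the results. The Pax5 probe set read 7.57 to 7.95 on the Pax5KO engrafted arrays and 6.18 to 6.76 on the WT engrafted arrays. Where the deletion lies in the gene is not stated by the labels, so this signal does not check the genotype, and the engrafted groups are named here by label. Cd79a, a B cell receptor component and known Pax5 target, read 5.42 ± 0.06 (SD, n = 3) in Pax5KO engrafted and 8.51 ± 0.36 (SD, n = 3) in WT engrafted cells. It belongs to an early B list of 7 measured genes that did not move together. Between these groups 2 of the 7 were called lower and 0 higher, with 3 differences above 0 and 4 below. Igll1, which encodes λ5, read 11.41 to 13.47 on the engrafted, ProB and Ly6D+ CLP arrays, 8.40 and 9.02 in PreB cells, and 4.02 and 4.61 in Ly6D- CLP. Xist, read from the inactive X chromosome of female cells, was above 10 on the 3 Pax5KO engrafted arrays, WT engrafted array 3 and both ProB arrays, and below 3 on the rest. The difference between the 3' and 5' actin control probe sets was 7.27 and 6.71 on the PreB arrays and 2.51 to 5.57 elsewhere. The like difference for Gapdh was 4.88 and 4.35 on the PreB arrays and 2.4 to 5.79 elsewhere, highest on the engrafted arrays numbered 3 (5.79 in Pax5KO and 5.44 in WT). Within a group, replicate arrays correlated with r between 0.955 and 0.992 over genes.

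Across the 6 groups, 15 of the 30 genes differed by limma's moderated F test at an adjusted p under 0.05, which is 50% of them, against 21.4% of all genes tested and 39.6% of the genes with a mean above 5 in some group. They were 8 of the 12 fatty acid genes and 7 of the 18 sterol genes. In the fatty acid arm they were Scd1 and Scd2, which place the first double bond in a saturated chain, Fads2, which desaturates polyunsaturated chains, and the chain enzymes Acaca, Fasn, Elovl5 and Elovl6. The eighth was Gpat3, which attaches a fatty acid to glycerol phosphate. In the sterol arm they were Insig1, Mvk, Idi1, Sqle, Ebp, Sc5d and Dhcr7. Scd1 had the lowest adjusted p (5.11e-06) and Scd2 the highest among the 15 (0.0498). Gpat3 (3.07e-05) and Mvk, mevalonate kinase (0.000559), followed Scd1. The count was 9 with the replicate number as a block, 7 of them among the 15.

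**Figure D1:**
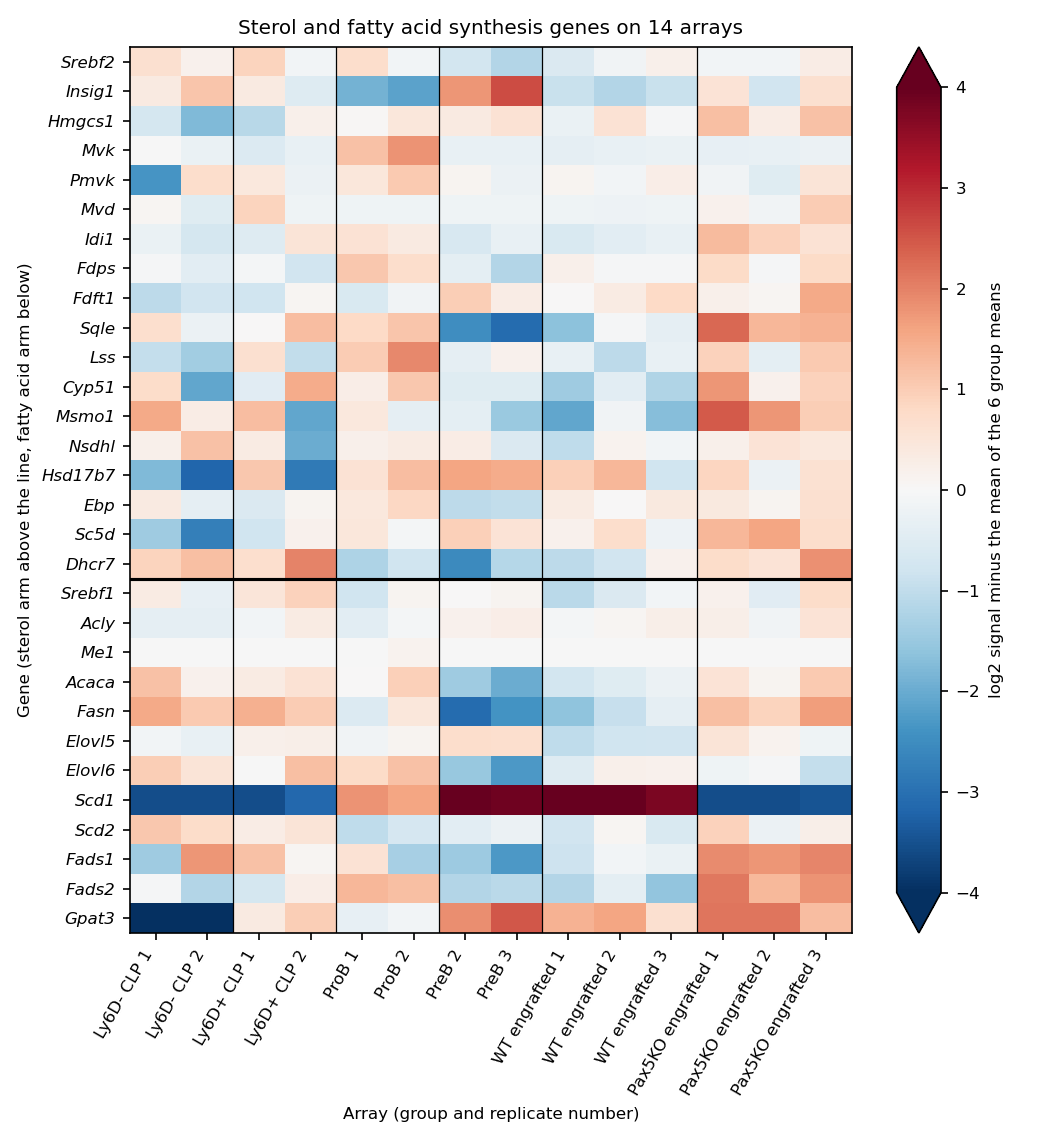
Signal of the 30 genes on each of the 14 arrays as a colour, in log2 units after subtracting the mean of the 6 group means of that gene; rows are genes with the sterol arm above the line, columns are arrays. Scd1 is low in both CLP groups and in Pax5KO engrafted cells and high in ProB, PreB and WT engrafted cells, Gpat3 is low in Ly6D- CLP, and Mvk stands out on the ProB arrays.

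Of the regulators, the SREBP genes Srebf2 and Srebf1 were called in 0 of the 4 comparisons below and Insig1 in 1. Srebf2 read 4.55, 4.55 and 4.95 in Pax5KO engrafted and 4.09, 4.53 and 4.86 in WT engrafted cells, and 3.92 and 3.50 in PreB cells. Its lowest adjusted p was 0.098, from ProB to PreB cells (-1.25, SE 0.41), and 0.0136 with the replicate block, in a range of 0.0136 to 0.853 over the alternatives. These Srebf2 values are of the brighter of its probe sets, with a mean of 4.65 over all arrays against 4.49 for the other. From ProB to PreB cells the other lay on the opposite side (0.66). From Ly6D+ CLP to ProB cells it differed by -1.92, where the brighter differed by -0.10. Neither was called in these steps. Srebf1 read 8.74, 8.10 and 9.29 in Pax5KO engrafted and 7.49, 7.98 and 8.47 in WT engrafted cells. Its differences ran from -1.06 (ProB against Ly6D+ CLP, SE 0.48, limma adjusted p = 0.297) to 0.73 (Pax5KO against WT, SE 0.39, limma adjusted p = 0.487), and the engrafted groups overlapped. Insig1, itself a target of SREBP, read 7.61 and 8.36 on the Ly6D- and 7.61 and 6.73 on the Ly6D+ arrays. In ProB cells it read 5.34 and 5.12, and in PreB cells 9.01 and 9.86. It read 6.37, 6.06 and 6.37 in WT engrafted and 7.79, 6.48 and 7.89 in Pax5KO engrafted cells. The ProB arrays were thus the lowest and the PreB arrays the highest of the 14.

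The comparison of the engrafted cells asked how these transcripts differ when the donor cells lack Pax5. In Pax5KO cells, Fasn, Elovl5 and Fads2 of the fatty acid arm and Idi1 and Sqle of the sterol arm rose, by 1.02 to 2.78 on the log2 scale, and Scd1 fell by 8.28. These 6 of 30 genes (5 higher, 1 lower) stand against 5.94% of all genes called in this comparison, 3.64% higher and 2.29% lower. With the replicate number as a block, which treats same-numbered arrays as pairs, 5 were called, 4 of them among the 6. Idi1 and Sqle were lost and Dhcr7 gained. Among genes with a mean above 5 in some group, as 28 of the 30 are, 6.99% were higher and 4.44% lower. In the sterol arm 2 of 18 rose, 0 fell, and 16 of 18 differences were above 0, with a median of 0.76. In the fatty acid arm 3 of 12 rose, 1 fell, and 10 of 12 differences were above 0, with a median of 0.74. The median over all genes was -0.00, and 0.09 over genes with a mean above 5 in some group. All Pax5KO arrays lay above all WT arrays for 8 sterol and 5 fatty acid genes, an arrangement seen for 11.9% of all genes. The 8 include Mvd, which had no group mean above 5. The reverse held for Scd1 alone among the 30 and for 7.65% of all genes. These shares without overlap, and the like ones below, are over all genes. They were not counted among genes with a mean above 5 in some group, where they may differ.

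**Figure D2:**
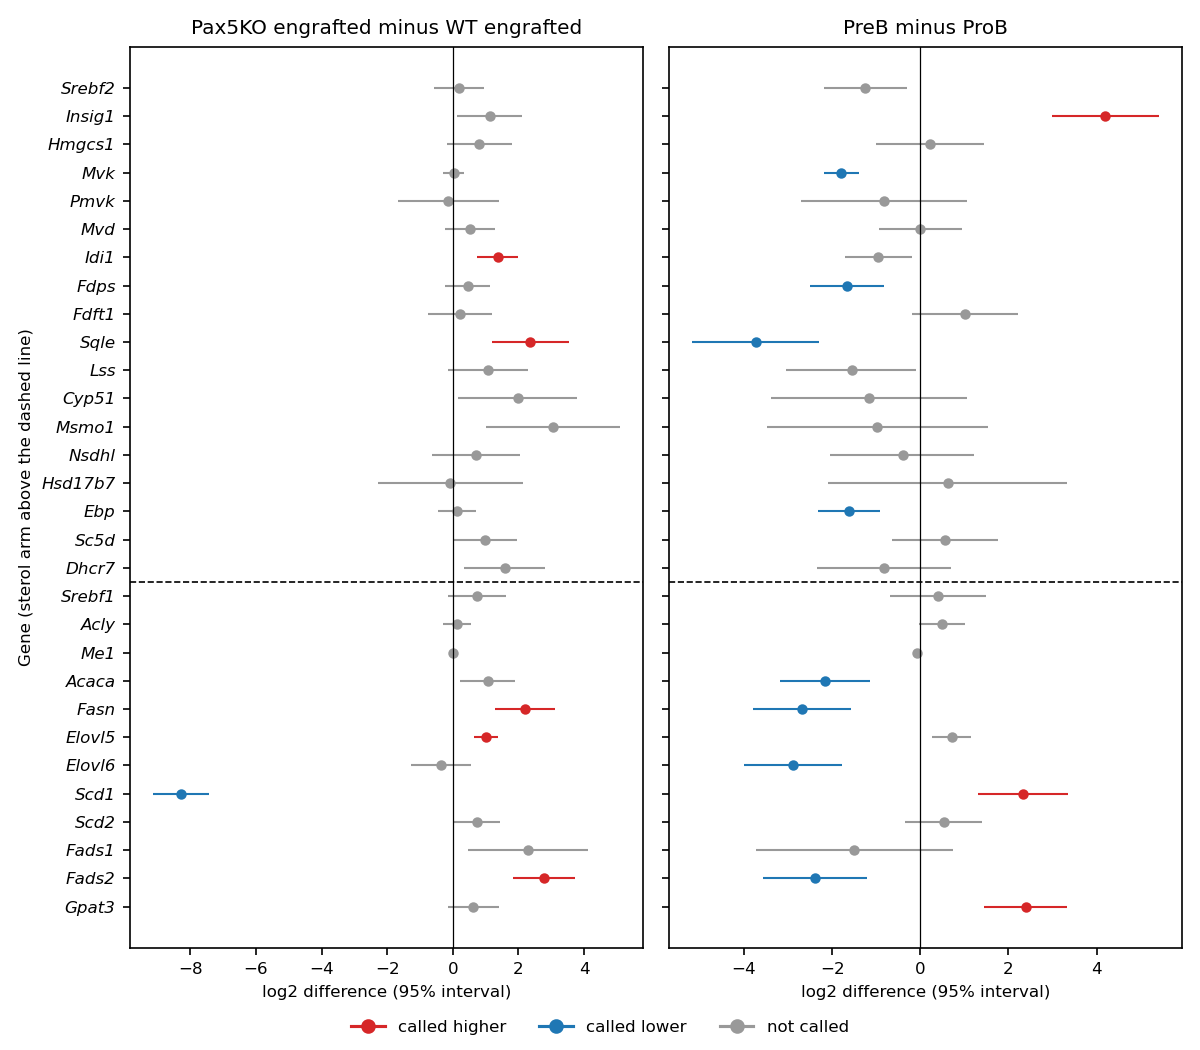
Log2 difference of each gene with its 95% interval from the limma fit, for Pax5KO engrafted minus WT engrafted (left, 3 arrays each) and PreB minus ProB (right, 2 arrays each); red and blue mark genes called higher and lower at an adjusted p under 0.05, grey the rest. On the left most points lie above 0 and Scd1 lies at -8.28; on the right Insig1 lies at 4.20 and Sqle at -3.74.

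Scd1 was the member with the widest separation. It read 10.90, 11.37 and 9.64 on the WT engrafted arrays and 2.33, 2.33 and 2.42 on the Pax5KO arrays, which lie at the floor of the table, its lowest value of 2.322. Group means were 10.64 ± 0.90 and 2.36 ± 0.06 (SD, n = 3 each). On this probe set the fall was at least 310-fold (log2 difference -8.28, SE 0.37, limma adjusted p = 5.34e-06). The other Scd1 probe set was also called lower, with a smaller log2 difference of -3.76, and no alternative ended the call. Its paralog Scd2 read 11.90, 10.76 and 11.22 in Pax5KO and 10.21, 11.07 and 10.37 in WT cells; these groups overlapped (0.74, SE 0.31, limma adjusted p = 0.297).

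The other desaturases lay on the opposite side. Fads2 read 6.93, 6.10 and 6.59 on the Pax5KO arrays and 3.63, 4.43 and 3.23 on the WT arrays, with no overlap, a rise of 2.78 (SE 0.42, limma adjusted p = 0.00525). Of its 3 probe sets, 2 were called. Fads1, which acts after Fads2 on the same chains, read 7.58 to 7.78 in Pax5KO and 4.99 to 5.71 in WT cells and was not called (2.28, SE 0.80, limma adjusted p = 0.185). That SE draws on the spread in all groups. Fads1 spread most in Ly6D- CLP (SD 2.27) and ProB cells (SD 1.34), against 0.10 in Pax5KO and 0.38 in WT engrafted cells. Fads1 was called when only the engrafted arrays were fitted (0.0191), in a range of 0.00354 to 0.628 over the alternatives. The same fit ended the calls of Sqle (0.133), Fasn (0.0823) and Elovl5 (0.0988), whose ranges were 0.0044 to 0.274, 0.000694 to 0.179 and 0.000589 to 0.0988.

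Of the chain enzymes, Fasn, fatty acid synthase, read 10.31, 10.00 and 10.78 on the Pax5KO arrays and 7.50, 8.21 and 8.77 on the WT arrays. The groups did not overlap, and the rise was 2.20 (SE 0.40, limma adjusted p = 0.0128). Elovl5, which lengthens polyunsaturated chains, read 11.41, 11.04 and 10.71 against 9.88, 10.09 and 10.13, again without overlap. Its rise was 1.02 (SE 0.16, limma adjusted p = 0.0067), and 1 of its 2 probe sets was called. Acaca, the carboxylase that makes malonyl-CoA, read 8.03 to 8.97 against 7.18 to 7.69 and was not called (1.06, SE 0.36, limma adjusted p = 0.171). Elovl6, which lengthens saturated chains, read 8.01 to 8.92 against 8.47 to 9.18 (-0.36, SE 0.40, limma adjusted p = 0.956). The suppliers of acetyl-CoA and NADPH were not called: Acly, the citrate lyase, differed by 0.13 (95% interval -0.30 to 0.56), and Me1, malic enzyme, was at the floor in all 6 groups. Gpat3 read 9.28 to 10.17 against 8.68 to 9.61 (0.63, SE 0.34, limma adjusted p = 0.487).

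In the sterol arm, Idi1, the isopentenyl diphosphate isomerase, read 9.41, 9.09 and 8.75 on the Pax5KO arrays and 7.55, 7.72 and 7.85 on the WT arrays. The groups did not overlap, and the rise was 1.37 (SE 0.27, limma adjusted p = 0.0196; 1 of 2 probe sets called). Sqle, squalene epoxidase, read 8.20, 7.23 and 7.28 against 4.26, 5.85 and 5.52, without overlap, a rise of 2.36 (SE 0.52, limma adjusted p = 0.0307). With the block, neither was called (adjusted p = 0.0844 for Idi1 and 0.122 for Sqle). Over the alternatives the adjusted p ran from 3e-04 to 0.194 for Idi1 and from 0.0044 to 0.274 for Sqle.

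Among the sterol genes that were not called, the largest difference was that of Msmo1, the sterol C4-methyl oxidase. It read 6.48 to 7.94 in Pax5KO and 3.39 to 5.34 in WT cells, without overlap (3.05, SE 0.90, limma adjusted p = 0.103). Msmo1 was called without dim genes (0.0161) and with array weights (0.00563), in a range of 0.00563 to 0.32 over the alternatives. Its dimmer probe set differed by 0.51 without a call. Cyp51, the lanosterol demethylase, read 6.40 to 8.00 against 4.79 to 5.80 (1.98, SE 0.79, limma adjusted p = 0.263). Dhcr7, the last reductase of the pathway, read 7.70 to 8.99 against 6.12 to 7.33 (1.58, SE 0.54, limma adjusted p = 0.174) and was called with the replicate block (0.0296; range over the alternatives 0.0163 to 0.978). For Cyp51 and Dhcr7, too, the groups did not overlap. Hmgcs1, which makes the HMG-CoA of the pathway, differed by 0.81 (SE 0.44), Lss, lanosterol synthase, by 1.08 (SE 0.53), Sc5d by 0.98 (SE 0.43) and Nsdhl by 0.71 (SE 0.58). The remaining 7 (Mvk, Pmvk, Mvd, Fdps, Fdft1, Hsd17b7 and Ebp) differed by -0.13 to 0.53.

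Other genes of the pathway, from a list of 42 of which 35 were measured, gave 3 higher and 3 lower. Slc25a1, the carrier that exports citrate from mitochondria for acetyl-CoA, read 10.41 to 11.35 in Pax5KO and 6.10 to 6.93 in WT cells, a rise of 4.45 (SE 0.41, limma adjusted p = 0.000372). Scap, the escort of SREBP, rose by 1.0 (SE 0.09, limma adjusted p = 0.000328), and Fabp5, a fatty acid binding protein, by 2.0 (SE 0.42, limma adjusted p = 0.0253). Mylip, a ubiquitin ligase, fell by 4.23 (SE 0.54, limma adjusted p = 0.0023). Gpam, a mitochondrial glycerol phosphate acyltransferase, fell by 3.57 (SE 0.45, limma adjusted p = 0.00206). Cd36, a fatty acid transporter, fell by 2.22 (SE 0.42, limma adjusted p = 0.0163) to the floor. The Fabp5 call was lost without any engrafted array but WT array 3 (adjusted p 0.0553 to 0.0995), and the Cd36 call on leaving out either of Pax5KO arrays 1 and 2 or of WT arrays 1 and 3 (0.055 to 0.06) and with the block (0.0688).

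Several measures moved with this comparison. Xist was high on WT array 3 and low on WT arrays 1 and 2, and no other group held both high and low arrays. A term for high Xist thus rests on the WT arrays alone and cannot be told apart from other traits of WT array 3. With the term, 2 of the 6 calls were kept (Scd1 and Fads2). Fasn (1.60), Elovl5 (0.93), Idi1 (1.23) and Sqle (2.05) kept their direction with adjusted p of 0.179, 0.084, 0.194 and 0.274, and their ranges reached down to 0.000694, 0.000589, 3e-04 and 0.0044. Without Pax5KO array 1 or 2 or WT array 1, Idi1 and Sqle were not called; Idi1 was also lost without WT array 2, and Sqle without Pax5KO array 3 or WT array 3. Without these arrays the rise of Idi1 was 1.21 to 1.38 (adjusted p 0.0624 to 0.081) and that of Sqle 1.88 to 2.53 (0.0572 to 0.119). Without both arrays numbered 3, Scd1, Fasn and Elovl5 were called and Idi1 (0.0506), Sqle (0.101) and Fads2 (0.051) were not; the range for Fads2 over the alternatives was 0.000434 to 0.051. The summed T and NK marker level was 7.10 to 7.67 in Pax5KO and 5.13 to 5.43 in WT cells, with 1 of 6 markers called higher and Cd3e, Cd3g and Cd8a at the floor in both. The plasma cell level was 12.34 to 13.04 against 10.86 to 11.29, with 1 of 4 markers higher and 1 lower. The summed granulocyte and monocyte level overlapped, at 9.62 to 10.14 and 8.23 to 10.46, with 1 of 10 markers higher. Of 14 cell cycle genes, 1 was higher and 2 were lower, with a median of -0.51. The part of these measures in the differences was not tested.

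**Figure D3:**
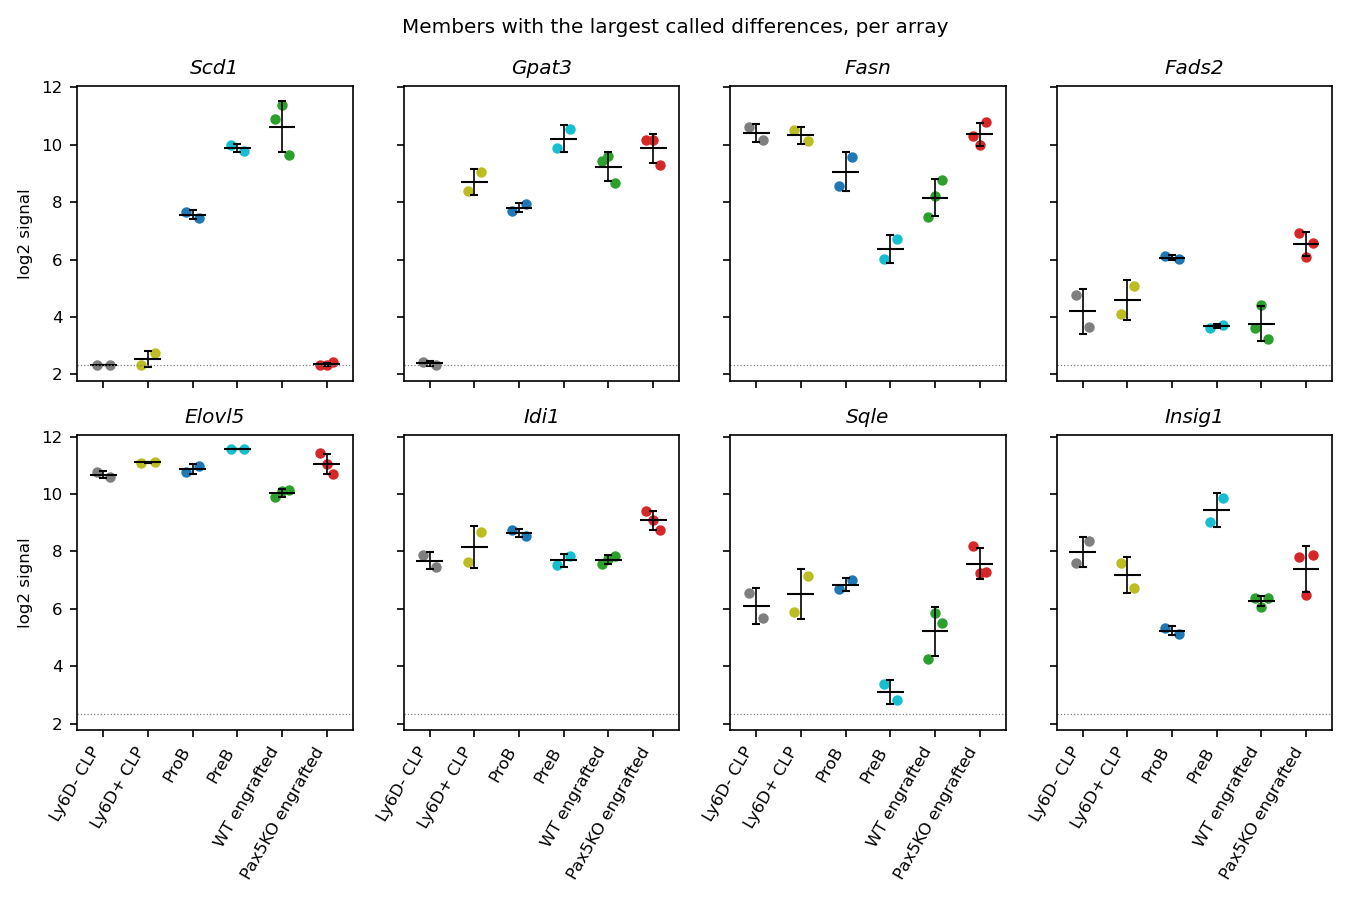
Log2 signal of 8 genes on each array (points), with the group mean and SD (bars), for the 6 groups from left to right; the dotted line is the floor of the table. Scd1 lies at the floor in both CLP groups and in Pax5KO engrafted cells and at 9.64 to 11.37 in WT engrafted cells, and Fasn and Sqle are lowest in PreB cells.

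From Ly6D- to Ly6D+ CLP, the step at which a common lymphoid progenitor takes on a B-directed state, 1 of the 30 genes was called, against 1.45% of all genes; among genes with a mean above 5 in some group, 1.34% were higher and 0.757% lower. Gpat3 read 2.45 and 2.32, at the floor, on the Ly6D- arrays and 8.39 and 9.04 on the Ly6D+ arrays, a rise of at least 80.6-fold (log2 difference 6.33, SE 0.41, limma adjusted p = 0.000157). On the other 10 arrays it read 7.70 to 10.54, so the Ly6D- arrays stood alone. Both groups had Scd1 at the floor (2.33 to 2.74). The median difference was 0.44 for the sterol arm and 0.30 for the fatty acid arm, against 0.00 over all genes, and differences of both signs occurred in each arm. The groups did not overlap for 5 higher and 3 lower members, against 12.1% and 10.4% of all genes. The widest difference not called was that of Sc5d, the lathosterol desaturase, at 1.78 (SE 0.53, limma adjusted p = 0.203). Its dimmer probe sets differed by -0.50 and 0.00, without a call. Fasn was level between the groups (10.63 and 10.18 against 10.53 and 10.12; difference -0.08, 95% interval -1.19 to 1.03). Several of the sterol genes spread widely within these groups: Pmvk read 4.40 and 7.48 on the 2 Ly6D- arrays, and Hsd17b7 read 6.71 and 2.81 on the 2 Ly6D+ arrays.

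Of the other pathway genes, 1 of 35 was called, Acacb, which read 2.61 and 2.76 against 2.34 on both Ly6D+ arrays, all within 0.5 of the floor, so no fold is given. The summed granulocyte and monocyte marker level was 12.61 to 13.07 in Ly6D- and at most 11.42 in Ly6D+ CLP, and its part in the Gpat3 difference was not tested. The 2 Ly6D- arrays differed in granulocyte genes, with S100a8 at 2.39 and 10.59, Ngp at 2.45 and 8.58 and Camp at 2.36 and 9.28, and Gpat3 was called without either of them. When only these 4 arrays were fitted, Gpat3 was not called (0.303; range over the alternatives 5.6e-06 to 0.303), and 1 gene of the whole table was called.

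From Ly6D+ CLP to ProB cells, Scd1 and Mvk rose and no other member was called. These 2 of 30 stand against 7.29% of all genes, 1.93% higher and 5.36% lower; among genes with a mean above 5 in some group, 3.26% were higher and 10.3% lower. Scd1 read 2.33 and 2.74, at the floor, in Ly6D+ CLP and 7.67 and 7.45 in ProB cells. On this probe set the rise was at least 32.5-fold (log2 difference 5.02, SE 0.45, limma adjusted p = 0.000532). Its other probe set differed by 1.01 and was not called. Mvk, which phosphorylates mevalonate, read 3.64 and 3.88 in Ly6D+ CLP and 5.35 and 5.98 in ProB cells, a rise of 1.91 (SE 0.18, limma adjusted p = 0.000554). On the 12 arrays that were not ProB it stayed between 3.64 and 4.16, so the ProB arrays alone lay above. The value 3.88 recurred on arrays of the Pax5KO engrafted, WT engrafted, PreB and Ly6D+ CLP groups. Whether it is a background level of this probe set was not tested. These values are of the brighter of its 2 probe sets; the other was not called (-0.31), and the mean of both rose by 0.80. The median difference was 0.50 in the sterol arm (13 of 18 above 0) and -0.29 in the fatty acid arm (5 of 12 above 0). Over genes with a mean above 5 in some group the median was -0.22, near that of the fatty acid arm, and the difference between the arms was not tested. When the arrays were set to equal medians of such genes, the median became 0.07 over these genes and 0.28 over all genes.

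Sterol genes stood on both sides in this step. Fdps, which joins isoprenoid units to farnesyl diphosphate, was higher by 1.30 without a call (SE 0.37, limma adjusted p = 0.0768), and Lss by 1.63 (SE 0.65, limma adjusted p = 0.22). The dimmer Lss probe sets lay on the opposite side, at -1.75 and -0.11, also without a call. Dhcr7 read 7.82 and 9.14 in Ly6D+ CLP and 5.91 and 6.35 in ProB cells (-2.35, SE 0.67, limma adjusted p = 0.077), and Insig1 was lower by the margin given in its values above (-1.94, SE 0.53, limma adjusted p = 0.0669). In the fatty acid arm, Scd2 read 11.29 and 11.51 against 9.96 and 10.31 (-1.27, SE 0.38, limma adjusted p = 0.0945) and Fasn 10.53 and 10.12 against 8.58 and 9.56 (-1.26, SE 0.49, limma adjusted p = 0.207). None of these groups overlapped. In all, 7 members were higher and 7 lower without overlap, against 12.6% and 21.2% of all genes. With quantile normalization or equal medians, Fdps and Fads2 were called as well, and with the replicate block Fdps and Dhcr7. Here the block's numbers were not taken to pair the arrays.

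Of the 35 other pathway genes, 3 rose and 3 fell in ProB cells. Gpam rose by 2.47 (SE 0.55, limma adjusted p = 0.0303), Tmem97, a sterol-regulated membrane protein, by 2.20 (SE 0.54, limma adjusted p = 0.0459), and Cd36 by 2.99 from the floor (SE 0.52, limma adjusted p = 0.0103). The cholesterol exporters Abca1 and Abcg1 fell by 5.19 (SE 0.98, limma adjusted p = 0.0151) and by 1.67 (SE 0.35, limma adjusted p = 0.0222), and Scap fell by 0.59 (SE 0.11, limma adjusted p = 0.0159). Each of these 6 calls was lost without at least 1 array: without Ly6D+ array 2 (all but Cd36), ProB array 2 (all but Scap) or ProB array 1 (Tmem97, Gpam and Scap), with adjusted p of 0.0565 to 0.164. Scap was also lost with quantile normalization (-0.34) and equal medians (-0.31). The summed granulocyte and monocyte marker level was at most 11.42 in Ly6D+ CLP and 6.97 to 7.10 in ProB cells, and the T and NK level 8.73 to 9.75 and 5.31 to 5.54, with Cd3e, Cd3g, Cd8a and Gzma at the floor in both. Their part in these differences was not tested. Xist varied within the WT engrafted group only, so those arrays alone set the term for high Xist. The term cannot separate Xist from group here, as Xist was low on both Ly6D+ and high on both ProB arrays. Scd1 and Mvk were called with the term as well. Only these 4 arrays in the fit gave no call among the 30 genes and 3 among all genes, with adjusted p of 0.0985 for Scd1 and 0.245 for Mvk (lowest over the alternatives 1.45e-05 and 4.49e-06).

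From ProB to PreB cells, 8 members fell and 3 rose. Those that fell were the sterol enzymes Mvk, Fdps, Sqle and Ebp and the fatty acid enzymes Acaca, Fasn, Elovl6 and Fads2, by 1.62 to 3.74 on the log2 scale. Those that rose were Insig1, Scd1 and Gpat3. These 11 of 30 stand against 11.5% of all genes, 6.35% higher and 5.19% lower; among genes with a mean above 5 in some group, 11.5% were higher and 10% lower. Without overlap between the groups, 9 members were higher and 15 lower, against 22.4% and 19.4% of all genes. In the sterol arm 1 of 18 rose and 4 fell, with a median of -0.89. In the fatty acid arm 2 of 12 rose and 4 fell, with a median of 0.16, against 0.00 over all genes. This median depended on few genes, as 6 differences were above 0 and 6 below. It was 0.41 without Me1, which was at the floor, and -0.79 without Scd1 and Gpat3, near the median of the sterol arm. This comparison shares the ProB arrays with the one before it, so the Mvk calls in both rest on the same pair of arrays.

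Sqle had the widest fall, from 6.68 and 7.0 on the ProB arrays to 3.39 and 2.81 on the PreB arrays (-3.74, SE 0.63, limma adjusted p = 0.00659). Mvk fell from 5.35 and 5.98 to 3.88 on both arrays (-1.79, SE 0.18, limma adjusted p = 0.000451), within the range of the groups other than ProB; its other probe set was not called (-0.05), and the mean of both differed by -0.92. Fdps read 5.55 and 5.16 against 4.07 and 3.30 (-1.67, SE 0.37, limma adjusted p = 0.021). These 3 genes catalyse early, middle and squalene steps of the sterol pathway and did not overlap between the groups. Ebp, a sterol isomerase encoded on the X chromosome, read 8.24 and 8.64 against 6.79 and 6.83 (-1.62, SE 0.31, limma adjusted p = 0.0109). Sterol genes without a call lay on both sides, from -1.56 (Lss, SE 0.65) to 1.01 (Fdft1, squalene synthase, SE 0.53), and Hmgcs1 read 9.63 and 10.04 against 9.94 and 10.16.

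Of the 4 chain enzymes measured (Acaca, Fasn, Elovl5 and Elovl6), 3 fell in PreB cells. Fasn read 8.58 and 9.56 on the ProB arrays and 6.04 and 6.73 on the PreB arrays (-2.69, SE 0.49, limma adjusted p = 0.00906). Elovl6 read 9.75 and 10.15 against 7.45 and 6.69 (-2.88, SE 0.49, limma adjusted p = 0.00667; 2 of 3 probe sets called). Acaca read 7.94 and 8.89 against 6.52 and 5.96 (-2.17, SE 0.45, limma adjusted p = 0.0156). For each of these 3 genes, the PreB arrays were the lowest of the 14. Elovl5 lay the other way, at 10.75 and 10.99 in ProB and 11.58 and 11.57 in PreB cells, without overlap or a call (0.71, SE 0.20, limma adjusted p = 0.054). It was called with equal array medians (0.0347), in a range of 0.0347 to 0.273 over the alternatives. Fads2 read 6.13 and 6.01 against 3.63 and 3.73 (-2.39, SE 0.51, limma adjusted p = 0.0186), and its call was lost without any single array of the 2 groups, with adjusted p of 0.0583 to 0.0773 (0.00425 to 0.085 over all alternatives). Calls were also lost without ProB array 2 (Fdps, Ebp, Acaca, Fasn and Scd1), ProB array 1 (Fdps), PreB array 2 (Fasn and Scd1) or PreB array 3 (Fdps and Acaca), with adjusted p of 0.0518 to 0.12.

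Insig1 had the widest rise, 4.20 (SE 0.53, limma adjusted p = 0.00163), from the array values given above. Gpat3 read 7.70 and 7.93 in ProB and 9.89 and 10.54 in PreB cells (2.40, SE 0.41, limma adjusted p = 0.00724). Scd1 read 7.67 and 7.45 against 9.99 and 9.79 (2.33, SE 0.45, limma adjusted p = 0.0122; both probe sets called). The ProB and PreB arrays did not overlap for these 3 genes. Scd1 thus stood in the order Ly6D- CLP, Ly6D+ CLP, ProB, PreB in the cells without a transplant, with the CLP groups both at the floor, while Fasn stood in the reverse order with overlapping arrays in the CLP groups.

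Other pathway genes moved in both directions: 6 of 35 rose and 4 fell. The genes that rose included the cholesterol exporters Abca1 (5.44, SE 0.98, limma adjusted p = 0.00873) and Abcg1 (1.64, SE 0.35, limma adjusted p = 0.0172), and the ubiquitin ligase Mylip (3.65, SE 0.66, limma adjusted p = 0.00925). They also included Npc2, which moves cholesterol out of lysosomes (1.27, SE 0.30), Acss2, which makes acetyl-CoA from acetate (2.04, SE 0.54), and Dgat1, which completes triglycerides (2.19, SE 0.45). Tmem97 fell by 4.61 to the floor (SE 0.54, limma adjusted p = 0.00114), Slc25a1 by 3.90 (SE 0.51, limma adjusted p = 0.00188), Lpcat3, a phospholipid acyltransferase, by 1.87 (SE 0.40, limma adjusted p = 0.0185) and Scap by 0.75 (SE 0.11, limma adjusted p = 0.0036). Leaving out arrays ended the calls of Acss2 (any of the 4), Npc2 and Lpcat3 (any of 3), Abcg1 and Dgat1 (either of 2), and Abca1 and Mylip (ProB array 2), with adjusted p of 0.0528 to 0.223. Of 14 cell cycle genes, 0 rose and 6 fell, with a median of -1.14.

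The PreB arrays stood apart in other measures. The summed granulocyte and monocyte marker level was 13.44 to 14.12 in PreB and 6.97 to 7.10 in ProB cells, with 7 of 10 markers called higher. The T and NK level was 10.67 to 11.25 against 5.31 to 5.54 (3 of 6 higher; Cd3e, Cd3g and Cd8a at the floor), and the stromal, fat and endothelial level 7.81 to 8.55 against 5.43 to 5.77 (2 of 7 higher). The actin difference between 3' and 5' probe sets and Xist also differed, as given above. The part of these measures in the 11 calls was not tested. A term for high Xist was set by the WT engrafted arrays alone and cannot separate Xist from group here. With the term, 2 of the 11 calls were kept, Insig1 and Mvk. The 9 others kept their direction with adjusted p of 0.0757 to 0.315. Of these, Scd1 (0.83), Gpat3 (1.56) and Fasn (-1.78) became smaller by over 1.5 times, while Fads2 (-3.19) and Fdps (-1.80) became larger. Sqle (-3.27), Ebp (-1.41), Acaca (-1.79) and Elovl6 (-2.55) became smaller by less than that. With only these 4 arrays in the fit, which leaves the differences as they are, 1 was kept, Fads2, and the other 10 had adjusted p of 0.051 to 0.202. Without ProB array 2 the 5 kept were Insig1, Mvk, Sqle, Elovl6 and Gpat3.

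**Figure D4:**
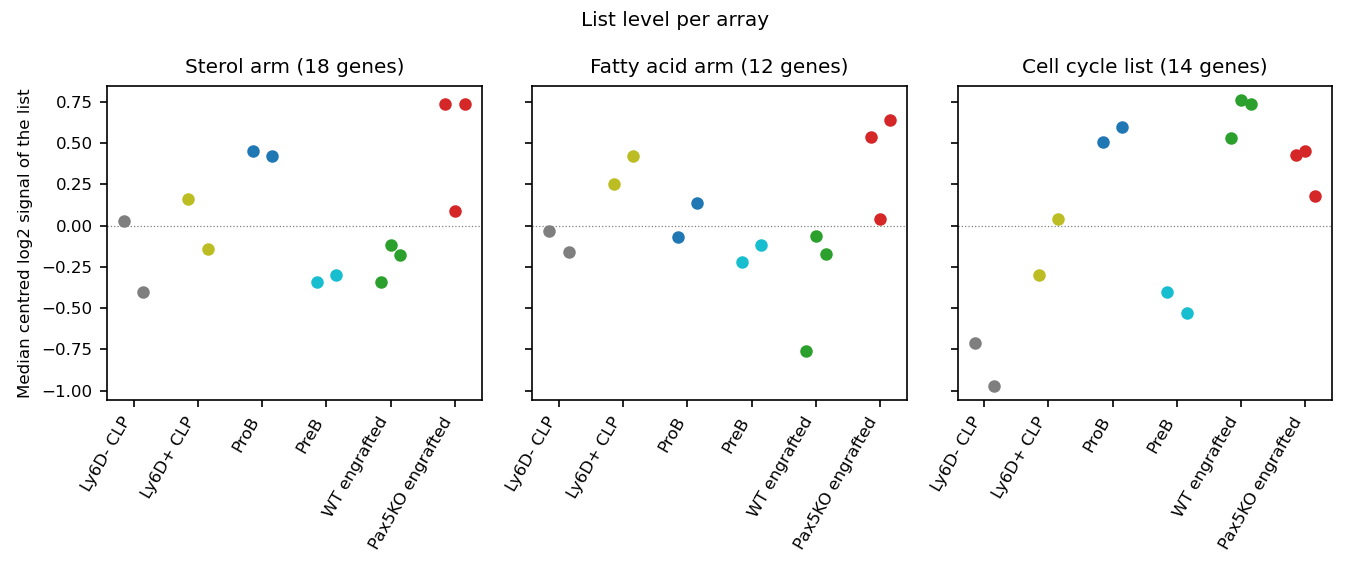
Median over the genes of a list of the log2 signal after subtracting each gene's mean of the 6 group means, 1 point per array, for the sterol arm, the fatty acid arm and the cell cycle list. The sterol arm lies at 0.09 to 0.74 in Pax5KO engrafted, -0.34 to -0.12 in WT engrafted, 0.42 and 0.45 in ProB, and -0.34 and -0.30 in PreB cells.

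Seen per array, the median centred signal of the sterol arm was 0.74, 0.09 and 0.74 in Pax5KO engrafted and -0.34, -0.12 and -0.18 in WT engrafted cells, so the groups did not overlap and Pax5KO array 2 lay nearest to WT. It was 0.45 and 0.42 in ProB and -0.34 and -0.30 in PreB cells. The Ly6D+ arrays stood at 0.16 and -0.14 and the Ly6D- arrays at 0.03 and -0.40. The fatty acid arm was 0.54, 0.04 and 0.64 in Pax5KO and -0.76, -0.06 and -0.17 in WT engrafted cells. It was -0.07 and 0.14 in ProB and -0.22 and -0.12 in PreB cells, 0.25 and 0.42 on the Ly6D+ arrays, and -0.03 and -0.16 on the Ly6D- arrays. Over all genes with a mean above 5 in some group, the same median was -0.25 and -0.13 on the ProB arrays and 0.09 and 0.11 on the Ly6D+ arrays. The lower place of ProB in the fatty acid arm was thus shared by genes at large. In the engrafted groups this median was 0.28, 0.23 and 0.05 in Pax5KO and 0.09, 0.17 and -0.06 in WT cells. Both arms lay below it on Pax5KO array 2 and on the WT arrays, and above it on Pax5KO arrays 1 and 3. The lack of overlap in the sterol arm is of the values as given, without an allowance for genes at large. These medians are descriptions and carry no test.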

How the data were processed

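The authors deposited log2 signals of 45101 probe sets on each array, from 2.322, a floor shared by many probe sets, to 16.08. The submitters' processing notes name RMA, GCRMA and limma; the step that produced the deposited values, and all versions, are not given in the sources used here. No detection call was used; a group whose arrays all read within 0.5 of that floor was taken to be at it, and a difference from it is a lower bound. Of the probe sets, 34945 had 1 gene symbol in the platform annotation (34741 matched in RefSeq GRCm38.p6), 932 several, 9160 none here, and 64 were controls. Each gene was read by its brightest probe set; 21 of the 30 measured members had several, and none of these was called in the opposite direction.

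Differences were tested by lmFit and eBayes of limma 3.58.1 (R 4.3.3), all 14 arrays in a single fit with a mean per group (8 residual degrees of freedom), two-sided, with Benjamini-Hochberg adjustment over 18193 genes; genes under 0.05 were called, with no minimum fold. The scripts were tested on simulated data. The number of arrays limits the precision.

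The members and lists were chosen with earlier results of these data known. Values per array are given for members called in a comparison and for Srebf1, Srebf2 and Insig1, and other members by range; the other pathway genes are named where called. The marker lists were early B, granulocyte and monocyte, erythroid (all 4 measured genes at the floor except 1 in PreB cells), T and NK, plasma cell, and stromal, fat and endothelial. All 7 measured early B markers were called higher from Ly6D- to Ly6D+ CLP.

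Same-numbered Pax5KO and WT engrafted arrays deviated together from their group means (r = 0.16, 0.33 and 0.56 over 8713 genes), so the numbers were taken to pair them. No title states a pairing, and arrays with unlike numbers were not correlated. The highest r was that of the arrays numbered 3, which also had the highest Gapdh differences (5.79 and 5.44). Whether pairing or another shared trait of the arrays lies behind these values was not tested. The PreB arrays are numbered 2 and 3 in titles and 1 and 2 in descriptions. Alternatives were a replicate block, leaving out each array, fitting only the 2 groups compared, the mean of probe sets, single probe sets, no dim genes (mean above 5 in at least 1 group), quantile normalization, equal array medians, array weights and a term for Xist above 8.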

Additional observations from a re-analysis of the deposited data

How the results depend on the processing

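Of the 20 calls of members, 0 reversed in 277 alternative values, 215 kept the call, 12 calls held in every leave-one-out and 1, Scd1 between the engrafted groups, held in every alternative run. Of the 23 calls of other pathway genes, 0 reversed in 315 values, 213 kept the call and 4 held in every alternative (Gpam, Scap and Slc25a1 between the engrafted groups and Tmem97 from ProB to PreB). Between the engrafted groups, 6 members became 12 with array weights, 2 with a term for high Xist and 3 without both engrafted arrays numbered 3, an alternative chosen after seeing the data; leaving out an array gave 4 to 5. The 2 groups alone gave 4; Sqle, Fasn and Elovl5 were lost and Fads1 gained. The block, which treats same-numbered arrays as pairs, gave 5, 4 of them among the 6. Idi1 and Sqle were lost and Dhcr7 gained. Over all genes the 1080 calls became 697 with the 2 groups alone, 3065 with array weights, and 676 without Pax5KO array 1 and 718 without WT array 1.

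From Ly6D- to Ly6D+ CLP the count was 0 with the 2 groups alone and 1 to 2 without an array. From Ly6D+ CLP to ProB, 2 became 4 with the replicate block, 5 without dim genes, 4 with quantile normalization, 4 with equal array medians, 0 with the 2 groups alone and 2 to 4 without an array. There the split over all genes, 351 higher and 976 lower, became 553 and 699 with quantile normalization and 673 and 817 with equal array medians. From ProB to PreB, 11 became 1 with the 2 groups alone, 2 with a term for high Xist (chosen after seeing the data) and 5 to 10 without an array. Across the 6 groups, 15 became 9 with the block. Fits of 4 arrays alone have fewer degrees of freedom; the cause of the other shifts was not tested. Where 1 array was left in a group, it was assumed to vary like the other groups. For these groups without a transplant the numbers were not taken to pair the arrays (correlations of -0.04 to 0.10).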
